A study of Mus musculus with 3 samples.

Results

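Smooth muscle cells of the arterial wall can leave their contractile state, in which the cell is filled with actin, myosin and the proteins that bind them, and take up a modulated state with more matrix, adhesion and inflammatory gene products. Vcam1, the endothelial and smooth muscle adhesion molecule to which integrin alpha4 beta1 on leukocytes binds, and Timp1, a secreted inhibitor of matrix metalloproteinases, are among the genes known to go up in that state. NF-kB, a transcription factor held in the cytoplasm by Nfkbia (IkappaB alpha), is a known activator of Vcam1, Icam1 and many chemokine genes.

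The cells described here are 800 aortic cells gated as smooth muscle. They had the highest combined level of Vcam1, Timp1, Anxa8 (a calcium-dependent membrane-binding annexin), Slco2a1 (the prostaglandin transporter) and Ecrg4 (a secreted peptide precursor). They were selected on measured values: of 28506 cell barcodes, 26757 had at least 200 genes and under 20% mitochondrial UMIs (unique molecular identifiers, each counting 1 captured RNA molecule), and 18550 of these had at least 5000 UMIs, at least 1% of them from Acta2 and Tagln together, fewer than 3 from C1qa, C1qb and C1qc (macrophage complement genes) and 0 from Cdh5 and Tie1 (endothelial genes). These 18550 are called gated cells below. For each one the UMIs of the 5 score genes were divided by all its UMIs, and the 800 highest over the 3 libraries together are called members, with the 17750 remaining gated cells as the comparison.

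The series holds 3 single-cell libraries, 1 for each human APOE allele (APOE2, APOE3, APOE4) that replaced mouse Apoe at its own locus in every cell of the animal, on a C57BL/6J background. All mice were male, were 12 weeks old when a Western diet with 42% fat and 0.2% cholesterol began, and ate it for 16 weeks, so no library is a chow control. Whole aortas from arch to iliac bifurcation were digested, and their cells were pooled by genotype, from 6 mice for APOE2, from 5 for APOE3 and from 7 for APOE4. The barcodes do not show the mouse, so each genotype is 1 sample, there is no replicate, no difference between genotypes was tested, and genotype and library cannot be told apart. Intervals below are 95% and cover counting error only. The libraries held 12288, 7247 and 8971 barcodes with 169058334, 125553125 and 126077489 UMIs in all, in the order APOE2, APOE3, APOE4, which is kept below wherever 3 values follow each other. They shared few gated barcodes (14 between APOE2 and APOE3, 12 between APOE2 and APOE4, 7 between APOE3 and APOE4), and no barcode was a member in more than 1 library.

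Members made up 6.69% (interval 6.13 to 7.28) of the gated cells of APOE2, 3.27% (2.80 to 3.79) of APOE3 and 2.23% (1.87 to 2.64) of APOE4, or 500 of 7473, 167 of 5112 and 133 of 5965 cells. The APOE2 library therefore supplied 62.5% of all members. The log2 ratio of the shares was 1.03 (0.78 to 1.30) for APOE2 to APOE3 and −0.55 (−0.89 to −0.21) for APOE4 to APOE3, without overlap of the 3 intervals of the shares. The order APOE2, APOE3, APOE4 was the same in each of the 10 other settings that left the shares free, but without Vcam1 and Timp1 in the score the APOE3 and APOE4 shares were 3.68% and 3.44% with overlapping intervals, and only 182 of the members chosen that way were among the 800. An 11th setting chose the same share of each library, which makes the shares equal by construction (4.31%, 4.30% and 4.31%). With the highest doublet scores left out, the shares were 6.77%, 3.92% and 2.78%.

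**Figure D1:**
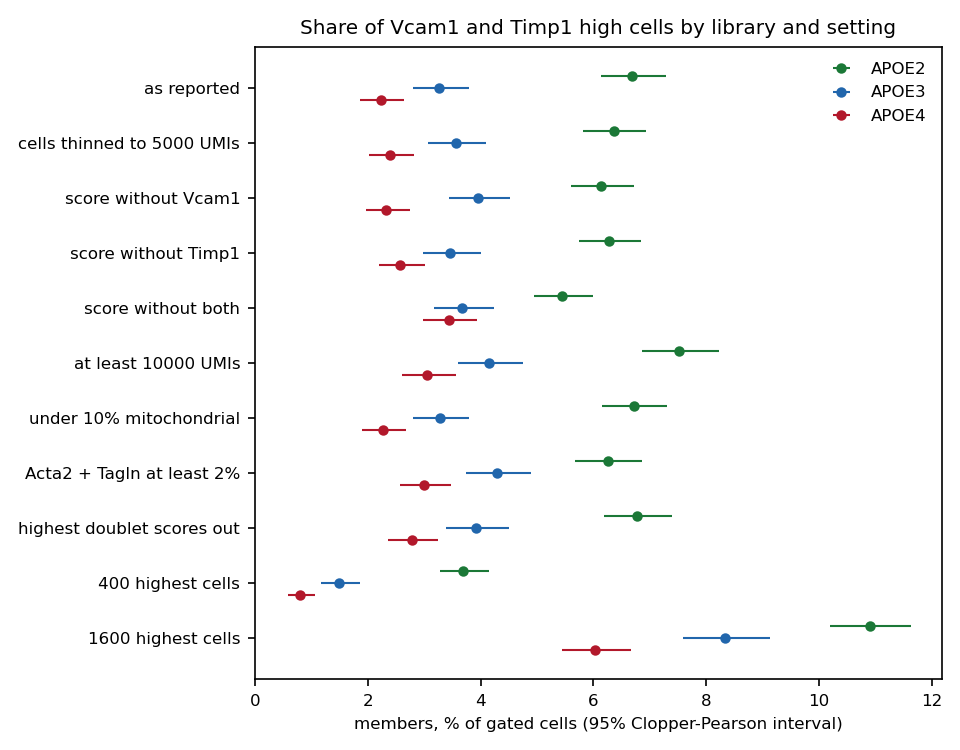
Members as a percentage of gated cells (horizontal axis, points with 95% Clopper-Pearson intervals) in the APOE2, APOE3 and APOE4 libraries, as reported and under the 10 other settings for choosing the cells that left the shares free. APOE2 lies above the other libraries in every setting (6.69% as reported), and APOE3 and APOE4 come together at 3.68% and 3.44% when Vcam1 and Timp1 both leave the score.

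Vcam1 supplied most of what the score measured. It held 69.8% of all score UMIs and Timp1 26.6%, against 1.78% for Ecrg4, 1.17% for Slco2a1 and 0.646% for Anxa8. Vcam1 was the leading score gene of 683 of the 800 cells, Timp1 of 101, Ecrg4 of 14 and Anxa8 of 2. Both Vcam1 and Timp1 were detected in 587 members, and all 5 score genes in 12. The cells just inside and just outside the threshold were much alike: the last member had a score of 458 CPM (CPM are the UMIs of a gene scaled to the usual fixed total of all UMIs), from 13 score UMIs, and the first cell left out 455 CPM, from 10. The 20 lowest members had a median of 8 Vcam1 UMIs and the 20 highest other cells 6.5.

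With all UMIs of a group of cells summed, Vcam1 (chromosome 3, 116109949 to 116129688 on the minus strand, mm10) stood at 1956, 1508 and 1167 CPM in members and at 22.2, 26.9 and 22.4 CPM in other gated cells. Timp1 (chromosome X, 20870166 to 20874735, plus strand) stood at 812, 365 and 515 CPM against 14.1, 15.6 and 12.1. Slco2a1 (chromosome 9, 102988712 to 103096002, plus strand) was at 27.7, 35.2 and 23.8 CPM, and Ecrg4 (chromosome 1, 43730602 to 43742578, plus strand) at 57.9, 24.5 and 21.7 CPM. The Vcam1 and Timp1 levels were high in the members of all 3 libraries, while Anxa8 (chromosome 14, 34085981 to 34100571, plus strand) was a gene of 1 library: its 311 UMIs in APOE2 members (26.1 CPM) compare with 4 UMIs in APOE3 and 4 in APOE4 (0.810 and 1.26 CPM). The levels rested on few cells to different degrees: 10 cells held 22.2%, 46.7% and 41.1% of the Vcam1 UMIs, 53.7%, 51.8% and 79.5% of those of Timp1 and 74.5%, 89.3% and 79.7% of those of Ecrg4. Without these 10 cells of each library Vcam1 stood at 1581, 890 and 784 CPM and Timp1 at 392, 190 and 116 CPM.

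Because these values chose the members, they were also read from molecules that had no part in the choice. Each cell's UMIs were divided at random into 2 equal parts, the 800 highest cells were chosen on 1 part, and the levels were taken from the other. Vcam1 then stood at 2019, 1416 and 1052 CPM in the chosen cells and at 27.1, 27.7 and 24.0 CPM in the others, and Timp1 at 850, 336 and 473 CPM. 702 cells were chosen both ways. Shares of cells with a UMI, in contrast, come from the same molecules that chose the members, so that their distance from other gated cells was fixed by the rule and is only described. The share of members with a Vcam1 UMI after thinning every cell to 5000 UMIs was 92.4%, 93.4% and 88.7% (97.4%, 96.4% and 96.2% before thinning), against 7.80%, 9.67% and 7.53% in the other gated cells. In macrophage-marked cells of the same libraries, which can make Vcam1 themselves, it was 23.4%, 18.4% and 8.14%. Timp1 after thinning was found in 54.6%, 50.3% and 33.8% of members, in 5.71%, 6.29% and 4.82% of other gated cells, and in 5.13%, 0 and 3.49% of macrophage-marked cells (0 of 76 cells in APOE3, with an upper bound of 4.74%). Median depths were 20694, 26314 and 20752 UMIs in members, 14178, 19775 and 15621 in other gated cells and 9884, 8843.5 and 9713 in macrophage-marked cells.

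As a group the members had smooth muscle markers, with less of the contractile products. This does not name every member: cluster 4, described below, was led by genes of other cell types. Of its cells 48.2% were among the highest doublet scores. All 10 markers of the smooth muscle list were detected in the members of every library, with summed levels of 12013, 11672 and 12209 CPM against 18743, 19199 and 17799 CPM in other gated cells. Acta2, smooth muscle actin, was at 15992, 16948 and 18408 CPM in members against 23157, 27813 and 25856, and Tagln, which binds actin, at 11709, 13907 and 12774 against 15041, 16913 and 15404. These 2 genes belong to the gate and were required to be present. Endothelial markers summed to 103, 93.4 and 91.0 CPM in members and 75.7, 79.0 and 80.3 CPM in other gated cells, led in the members by Pecam1 in APOE2 and APOE4 and by Eng in APOE3. Kdr, Emcn and Cldn5 were at 0 in APOE3 members and Kdr at 0 in APOE4 members. Of 6 endothelial markers measured well enough, 1 was at least 1.5-fold higher in members in every library. Their median log2 ratios of members to other gated cells were 0.48, 0.38 and 0.48. Macrophage markers summed to 15.9, 8.9 and 7.8 CPM against 12.6, 9.7 and 8.2, and were led by Lyz2, Lyz2 and Cd68, with Ptprc at 0 in APOE3 and APOE4. T and B lymphocyte markers summed to 1.01, 0.203 and 0.941 CPM, led by Cd79a, with Cd3e at 0 in every library. Mesothelial markers summed to 31.5, 50.6 and 32.3 CPM in members against 35.3, 33.1 and 29.2 CPM in other gated cells, so that they were higher in the members of APOE3 and APOE4. Krt18, a keratin, led that list at 26.5, 44.0 and 28.9 CPM, with 4, 3 and 3 of its 10 genes detected in members, and the defining markers Msln and Wt1 were at 0 in every library. Adipoq was at 0 in APOE2 and APOE3 members, while Fabp4 alone carried the adipocyte list (296, 142 and 102 CPM, against 341, 148 and 125 CPM in other gated cells).

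Schwann cell markers were low but higher in members, at 6.96, 22.9 and 5.96 CPM against 2.97, 2.65 and 2.90 CPM, led by S100b in APOE2 and APOE4, with Sox10 at 0 in APOE2 and APOE4. Of the 2 genes of that list measured well enough, 1, S100b, was at least 1.5-fold higher in every library. Cardiac muscle markers summed to 113, 160 and 114 CPM against 211, 87.7 and 40.4 CPM, lower in APOE2 members and higher in those of APOE3 and APOE4. Tnnt2, a troponin, made up nearly all of this sum, and Myh6 was at 0 in every library. The part of either list in the results was not tested.

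Fibroblast markers also moved with the members, at far higher levels. Summed over 10 genes they stood at 2759, 502 and 667 CPM in members and 330, 373 and 362 CPM in other gated cells, with Dcn (decorin) the most abundant at 1386, 252 and 440 CPM. Of 9 fibroblast markers measured well enough, 3 were at least 1.5-fold higher in every library. The gap was large in APOE2 (median log2 ratio 2.36) and smaller in APOE3 (0.53) and APOE4 (0.44). Without cluster 4 of the members, described below, these medians were 0.54, −0.12 and −0.04. The part of fibroblast markers in the results below was not tested, other than by leaving out that cluster, which had the highest Dcn level of the clusters. Other clusters held Dcn as well. Members were also deeper than other gated cells, had a lower mitochondrial share (medians 1.97%, 1.36% and 2.28% against 2.28%, 1.73% and 2.91%) and, in APOE2, a larger share of cells among the highest doublet scores (12.8% against 9.47%, with 5.39% against 5.24% in APOE3 and 8.27% against 7.84% in APOE4).

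Apart from the score and gate genes, 13359 genes had at least 50 UMIs in the gated cells of every library. Of these, 199 (1.49%) were at least 2-fold higher in members within each of the 3 libraries and 30 (0.225%) at least 2-fold lower. Since the comparison is the one the rule made, these counts describe the members and carry no test. Without the APOE4 library the first count was 314, and the second was 96, 62 and 65 without APOE2, APOE3 and APOE4. The median log2 ratio over all 13359 genes was −0.04.

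Of the 12 genes with the highest smallest ratio, 11 are reported here, in that order Cytl1, Fxyd5, Tmem176b, Tnfrsf11b, Atp1b1, Lgals3, Ltbp2, Fn1, Capg, Mgp and Tgfb1. Mgp, the matrix Gla protein that inhibits calcification of the vessel wall, was the most abundant of them, at 24794, 40185 and 20076 CPM in members against 9698, 10864 and 6098 CPM in other gated cells. Every member had Mgp, and its level was high over many cells, with medians per cell of 15409, 30136 and 8620 CPM. The log2 ratios were 1.35, 1.89 and 1.72. Fn1, fibronectin, was at 712, 1469 and 1273 CPM against 266, 500 and 419 CPM. It was detected in 93.6%, 98.2% and 92.5% of members, and its log2 ratios were 1.42 (1.39 to 1.46), 1.55 (1.52 to 1.59) and 1.60 (1.56 to 1.65). The summed Fn1 level of the members of each library therefore lay above that of the other cells of every library. Medians per member were 413, 1059 and 487 CPM. Without the 10 highest cells of each library the summed level was 604, 1249 and 864 CPM.

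Fxyd5, which binds the sodium pump, was at 166, 271 and 150 CPM against 37.4, 63.3 and 32.0 CPM, with nearly equal log2 ratios of 2.15, 2.10 and 2.23. Atp1b1, a beta subunit of that same pump, was at 69.3, 58.1 and 52.4 CPM against 22.1, 13.5 and 16.4 CPM. Both genes thus had their 3 member values above their 3 values in other cells. Tnfrsf11b, osteoprotegerin, the decoy receptor that blocks RANKL, stood at 98.2, 115 and 54.0 CPM against 19.8, 27.4 and 17.1. Lgals3, galectin-3, a marker of modulated smooth muscle, stood at 146, 103 and 83.1 CPM against 31.5, 29.3 and 26.6. For both genes the lowest member value was also above the highest value of other cells. For Tnfrsf11b this rested on few cells, as 39.8% of APOE4 members had a UMI. Without the 10 highest cells of each library it was at 75.4, 68.0 and 24.4 CPM in members. The APOE4 members were then below the other cells of APOE3. Tgfb1, the growth factor, was at 70.2, 85.1 and 111 CPM against 29.6, 35.3 and 42.5, and Ltbp2, a protein of the microfibrils, at 106, 74.7 and 89.1 CPM against 28.0, 26.3 and 25.7. Cytl1, a secreted cytokine-like protein known from cartilage, had the highest ratios of the 11 in APOE3 and APOE4 (log2 3.22 and 3.72, with 2.55 in APOE2), at 50.3, 125 and 81.0 CPM against 8.57, 13.4 and 6.13 CPM. Its level rested on few cells: 14.6%, 22.8% and 18.0% of members had a UMI, and without the 10 highest cells of each library it was 17.0, 13.2 and 10.96 CPM.

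**Figure D2:**
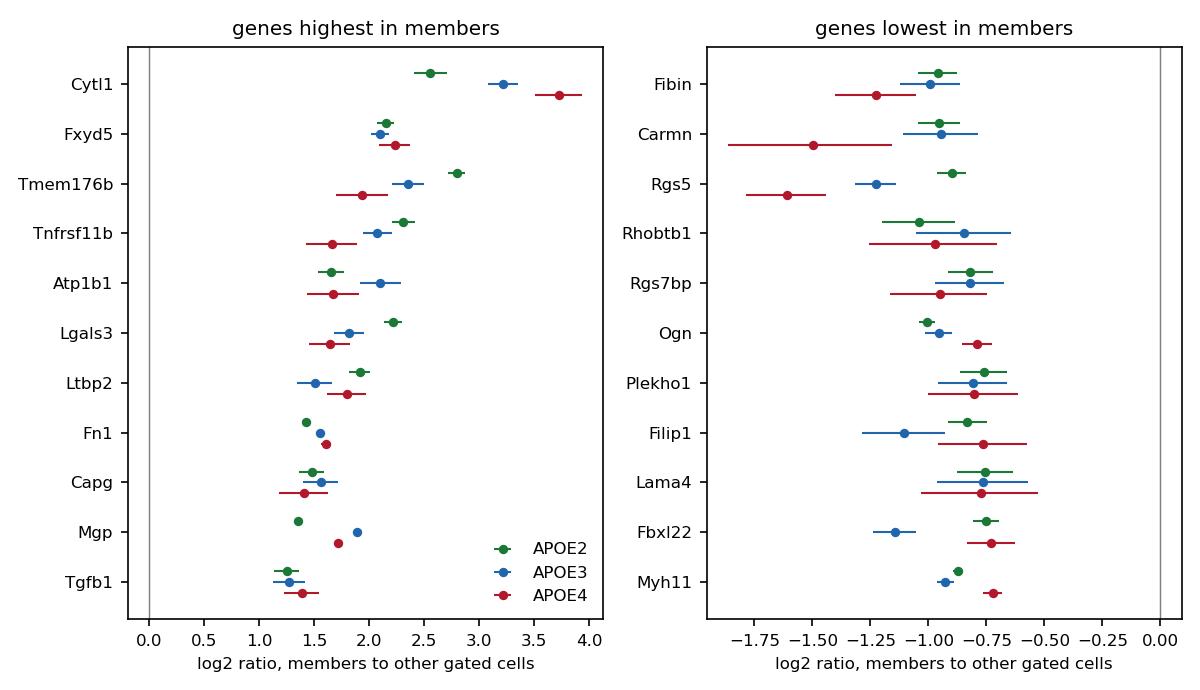
Log2 ratio of CPM in members to CPM in other gated cells (horizontal axis, points with 95% counting intervals) for 11 of the 12 genes highest and 11 of the 12 lowest in members, by library. In each panel all points lie on 1 side of 0, from 1.25 for Tgfb1 in APOE2 to 3.72 for Cytl1 in APOE4 on the left, and from −1.61 for Rgs5 in APOE4 to −0.72 for Myh11 in APOE4 on the right.

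Of the 12 lowest, 11 are reported here: Fibin, Carmn, Rgs5, Rhobtb1, Rgs7bp, Ogn, Plekho1, Filip1, Lama4, Fbxl22 and Myh11. The means of their 3 log2 ratios, from −1.24 to −0.76, were smaller in size than those of the 11 genes above, from 1.30 to 3.17. Myh11, smooth muscle myosin heavy chain, was at 1467, 1359 and 1624 CPM in members against 2685, 2583 and 2681 CPM, log2 ratios of −0.87, −0.93 and −0.72. Nearly every member still had it (99.6%, 98.8% and 100%). Carmn, a long noncoding RNA that acts with myocardin in smooth muscle, was at 86.9, 65.2 and 21.7 CPM against 168, 126 and 61.2 CPM, so that the APOE2 and APOE3 members were above the other cells of APOE4. Rgs5, a regulator of G-protein signalling in mural cells, was at 188, 214 and 89.7 CPM against 350, 502 and 274, and Ogn, the proteoglycan osteoglycin, at 566, 515 and 629 CPM against 1135, 999 and 1089. The levels of both were lower in the members of every library than in the other cells of any.

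Gene lists were compared by the median over their genes of the mean of the 3 log2 ratios, with the number of genes at least 1.5-fold higher or lower in every library. Over all 13359 genes, 491 (3.68%) were at least 1.5-fold higher and 178 (1.33%) at least 1.5-fold lower in every library. Of 21 contractile genes, 4 were lower by that rule and 0 higher, with a median of −0.58. Without cluster 3 of the members, described below, 2 were lower and the median was −0.53. Des, desmin, had the lowest mean (54.2, 113 and 43.9 CPM against 127, 131 and 110), though by only −0.21 in APOE3. There 10 cells held 72.8% of the Des UMIs of members, and without them Des was at 33.6 CPM. Pln, phospholamban, had the highest mean, −0.14. Myocd, the coactivator that drives the contractile genes, was at 148, 128 and 160 CPM against 189, 176 and 203, log2 ratios of −0.35, −0.46 and −0.34.

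Of 18 modulated smooth muscle genes, 10 were at least 1.5-fold higher and 0 lower, with a median of 1.50. Spp1, osteopontin, was the highest at 2100, 43.7 and 33.9 CPM against 4.17, 1.14 and 0.389 CPM, and Lum, lumican, stood at 942, 40.1 and 45.2 CPM against 21.2, 19.99 and 13.5. Vim, vimentin, was not higher in members (log2 ratios of −0.35, −0.21 and −0.02), and Serpine2, a protease inhibitor, was little higher (0.28, 0.14 and 0.16). Col8a1, a short-chain collagen of the injured arterial wall, was at 63.9, 46.6 and 24.2 CPM against 9.20, 8.19 and 4.24, log2 ratios of 2.80, 2.51 and 2.51, and Thbs1, thrombospondin-1, at 59.8, 36.1 and 27.9 against 13.1, 4.38 and 6.49. The median of this list depended on APOE2: it was 0.77 without that library, and 0.76 without the 85 members of the fibroblast-gene cluster described below.

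The cartilage and bone list had 5 of 12 genes higher and a median of 0.96. Runx2, the bone transcription factor, was at 7.47, 7.29 and 4.39 CPM against 1.80, 1.53 and 1.31, and Sox9, that of cartilage, at 26.3, 23.5 and 31.1 against 8.04, 12.9 and 20.9. Both had log2 ratios above 0 in each library, Runx2 of 2.06, 2.25 and 1.75 and Sox9 of 1.71, 0.86 and 0.57. Alpl, the mineralizing phosphatase, went in different directions (1.53, −1.68 and −2.06), and Ibsp, bone sialoprotein, was at most 1.62 CPM in members. Col2a1, which defines cartilage cells, had 4, 5 and 0 UMIs, from 1 APOE2 and 1 APOE3 cell, and Bglap, which defines bone-forming cells, had 0, 1 and 0. Collagens as a list had a median of 0.33 with 5 of 16 genes higher, elastic fibre genes 0.57 with 4 of 17, and metalloproteinases and their inhibitors 0.39 with 3 of 12. Fbln2, a fibulin, was the highest elastic fibre gene at 56.8, 32.2 and 37.7 CPM against 6.59, 6.399 and 4.75. Eln, elastin, stood at 1725, 2128 and 1934 CPM against 1171, 1216 and 954. Mmp2, gelatinase A, stood at 46.0, 42.3 and 32.9 CPM against 13.5, 11.4 and 8.74, and Timp2 and Timp3, relatives of Timp1, were higher by much less (log2 0.73, 0.64 and 0.63 for Timp2, and 0.77, 0.25 and 0.18 for Timp3).

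NF-kB response genes were higher in members, 9 of 13 by at least 1.5-fold in every library and 0 lower, with a median of 1.33. Icam1, another adhesion molecule for leukocytes, was at 108, 33.2 and 68.4 CPM against 3.996, 3.42 and 9.17 CPM, log2 ratios of 4.75, 3.28 and 2.90. The lowest of its 3 member values was 33.2 CPM and the highest value of other cells 9.17 CPM. Nfkbia was at 785, 567 and 1175 CPM against 253, 271 and 611 CPM, and Nfkb2, the p100 subunit, at 33.6, 40.9 and 39.8 against 12.4, 11.9 and 13.9. The levels of Nfkbia differed between libraries as well, so that APOE3 members were below the other cells of APOE4. Cxcl1, a neutrophil chemokine, was at 477, 26.5 and 97.0 CPM against 12.6, 6.28 and 24.2. Sod2, the mitochondrial superoxide dismutase, was higher in APOE2 alone (0.89, −0.24 and −0.17). Of the Vcam1 receptor chains, Itga4 was at 5.71, 3.65 and 3.14 CPM in members against 12.6, 3.59 and 3.68, and Itgb1 at 1207, 1407 and 1091 CPM against 1383, 1440 and 1182. Apart from Icam1, no gene of the 10 in the adhesion list was 1.5-fold higher in every library, and its median was −0.20.

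Promoter sequences were read for the NF-kB response list because 9 of its 13 measured genes were higher in members, as Vcam1 was. They are printed for 4 genes of the list, Cxcl1, Cxcl2, Icam1 and Nfkbia, chosen after their values were seen. Of these, Cxcl2 was not higher in APOE3 members, at 2.03 CPM against 4.69 CPM in other gated cells. All 4 hold a kappaB-like match, while Lcn2, the gene of the list furthest apart between genotypes, held none of the 3 motifs and is not printed. The letters searched in the 250 bases before each start in RefSeq's promoter table (build GRCm38.p6), on both strands, were GGANTTTCC (kappaB-like), TGANTCA (AP-1) and TTCNNNGAA (STAT-like). The kappaB-like letters were in 1.07% of all 32851 promoters, and in a promoter of 9 of the 15 NF-kB response genes that the table holds against 1.25% of all 27025 genes. They were in 0 of 18 contractile genes. The NF-kB response list was chosen for known links to NF-kB, so its share describes the list and not the members. Of the score genes, Timp1, Anxa8, Slco2a1 and Ecrg4 matched the table and held none of the 3 motifs, and Vcam1 did not match. AP-1 letters were in 4 of the 15 NF-kB response genes (26.7%) and 3 of the 18 contractile genes (16.7%), against 7.82% of all genes and 6.75% of all promoters. STAT-like letters were in 3 of the 15 and 0 of the 18, against 8.13% and 7.02%. Cxcl1 and Cxcl2 each held 1 kappaB-like match, starting 70 and 96 bases before the start, Icam1 held 1 on the minus strand and Nfkbia 2, and capitals mark these matches below. A match is a description of letters and not a measured site. The windows are chr5:90890995-90891244 and chr5:90903649-90903898 for Cxcl1 and Cxcl2 and chr9:21015690-21015939 for Icam1, on the plus strand, and chr12:55492648-55492897 for Nfkbia on the minus strand, each written 5′ to 3′ along the gene.
Cxcl1: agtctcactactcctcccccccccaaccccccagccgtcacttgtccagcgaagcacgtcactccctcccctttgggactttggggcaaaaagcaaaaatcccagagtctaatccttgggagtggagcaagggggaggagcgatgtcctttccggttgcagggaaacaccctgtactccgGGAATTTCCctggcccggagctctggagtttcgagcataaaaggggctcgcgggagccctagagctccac
Cxcl2: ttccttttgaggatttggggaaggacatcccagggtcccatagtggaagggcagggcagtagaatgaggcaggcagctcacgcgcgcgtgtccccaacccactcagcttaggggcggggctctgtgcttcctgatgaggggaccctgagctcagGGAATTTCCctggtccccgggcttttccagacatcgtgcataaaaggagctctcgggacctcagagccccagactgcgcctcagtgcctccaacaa
Icam1: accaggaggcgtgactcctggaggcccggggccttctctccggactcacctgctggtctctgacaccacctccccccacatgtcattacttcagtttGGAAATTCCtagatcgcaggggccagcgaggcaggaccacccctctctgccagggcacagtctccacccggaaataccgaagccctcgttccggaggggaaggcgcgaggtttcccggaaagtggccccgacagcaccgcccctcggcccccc
Nfkbia: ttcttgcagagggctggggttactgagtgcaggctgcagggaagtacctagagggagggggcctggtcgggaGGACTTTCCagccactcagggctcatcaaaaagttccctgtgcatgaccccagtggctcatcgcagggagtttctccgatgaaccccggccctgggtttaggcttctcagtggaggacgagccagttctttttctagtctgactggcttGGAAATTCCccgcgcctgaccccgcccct

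Interferon response genes had a median of 1.12, with 7 of 10 higher, or 3 of 10 without cluster 4 below. Isg15, a ubiquitin-like protein, was at 32.0, 36.9 and 16.0 CPM against 11.3, 9.87 and 9.38, and Ifit1 at 5.45, 29.8 and 1.57 CPM against 1.74, 1.63 and 0.959, so that APOE3 members stood out for Ifit1. The gp130 list had a median of 0.19 with 2 of 9 higher, Bcl3 (13.6, 4.05 and 9.41 CPM against 2.12, 1.38 and 4.28) and Osmr, the oncostatin M receptor (39.0, 20.7 and 29.2 against 18.7, 12.6 and 16.9). Socs3, its feedback inhibitor, did not follow (−0.11, −0.06 and 0.07). Immediate early and dissociation genes, which tissue digestion is known to induce, had a median of 0.13 with 0 of 20 higher and 0 lower, so that Fos, at 2449, 3262 and 5032 CPM in members, was at 2879, 3510 and 5693 CPM in the other gated cells.

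**Figure D3:**
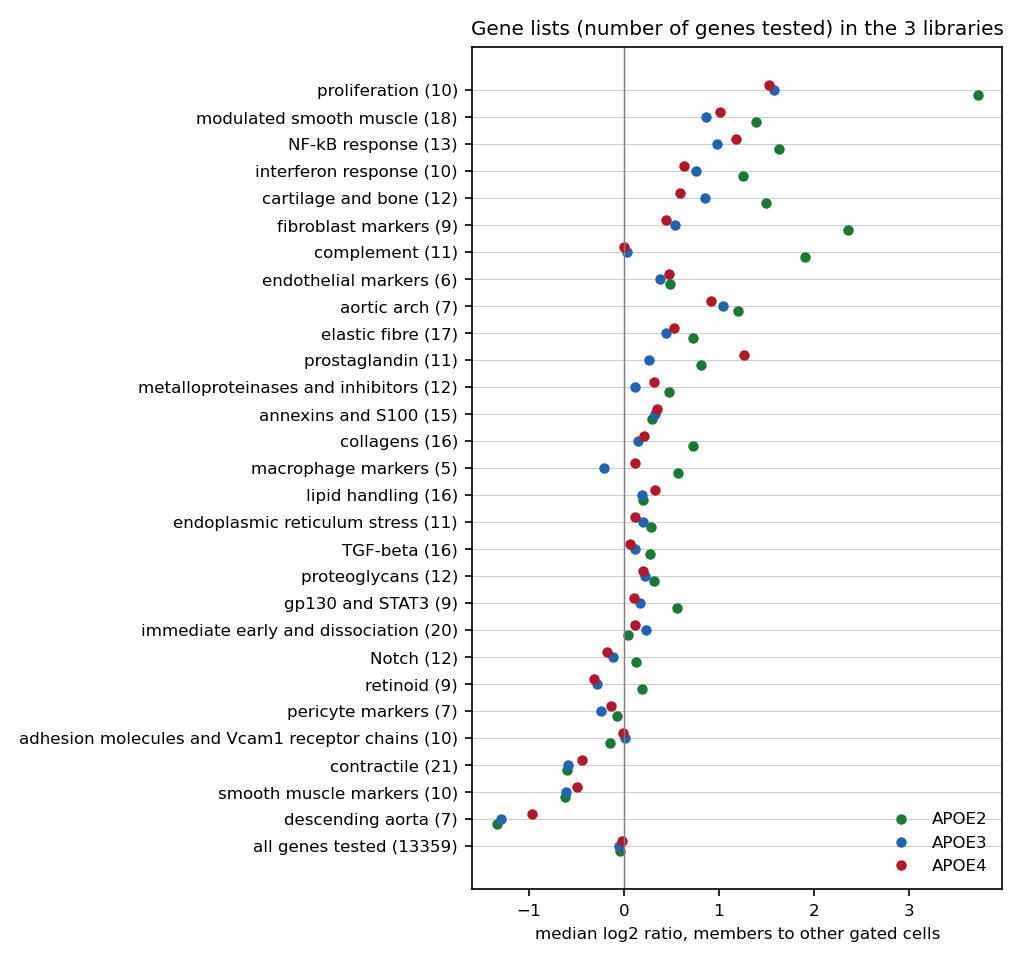
Median log2 ratio of members to other gated cells over the genes of each list with at least 5 genes tested (number of genes in brackets), by library. Contractile, smooth muscle and descending aorta lists lie below 0 in each library and the modulated (1.50 over the libraries) and NF-kB (1.33) lists above 0, while fibroblast and complement lists are far higher in APOE2 (2.36 and 1.91) than in the other libraries.

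Among prostaglandin genes, which the transporter Slco2a1 joins, 5 of 11 were higher, with a median of 0.41. Ptgs2, the inducible cyclooxygenase, was at 45.2, 31.2 and 40.8 CPM in members against 9.82, 10.1 and 16.3, and Ptgs1, the constitutive one, at 3.27, 9.11 and 7.53 against 1.10, 1.87 and 0.940. The prostacyclin synthase Ptgis, far more abundant at 1060, 1298 and 1151 CPM, was not higher (−0.31, −0.18 and −0.10). Annexin and S100 genes had a median of 0.34 with 4 of 15 higher, led by S100a10, the partner of annexin A2 (316, 301 and 315 CPM against 132, 130 and 152), and Anxa1. TGF-beta genes had a median of 0.23 with 1 of 16 higher, which was Tgfb1. Lipid handling genes had a median of 0.29 with 0 of 16 higher and 1 lower, Vldlr, a lipoprotein receptor (52.9, 44.2 and 51.8 CPM against 85.3, 79.9 and 78.2). Without cluster 2, 4 or 7 of the members, described below, 0 were lower. Notch, retinoid and endoplasmic reticulum stress lists had medians of −0.01, −0.05 and 0.25 with no gene past 1.5-fold in every library. Proteoglycans had a median of 0.21 with 2 of 12 higher, Lum and Acan (aggrecan, at 21.6, 63.0 and 43.0 CPM against 13.6, 35.5 and 19.3), and Ogn lower. Without cluster 4 this median turned to −0.10, and without cluster 2 or cluster 4 only 1 gene was higher. Proliferation genes had a median of 2.31 with 7 of 10 higher, but 12 of the 800 members, cluster 7 below, held most of this. Mki67 was at 198 CPM in those 12 cells and 0.407 CPM in the other members, and Top2a at 260 and 0.306 CPM. Without them the median was 0.69 over the 7 genes that still passed the minimum of UMIs, with 1 of 7 higher. Over all members levels were low: Mki67 was at 5.45, 2.43 and 3.45 CPM against 0.171, 0.893 and 0.456, and Ccnd1, cyclin D1, at 19.7, 18.0 and 5.96 against 0.997, 1.37 and 1.06. After thinning, 0.80%, 1.80% and 4.51% of members had a UMI of Mki67 or Top2a, or 4, 3 and 6 cells, against 0.143%, 0.182% and 0.549% of other gated cells. In macrophage-marked cells the share was 11.4%, 6.58% and 12.8%. Whether those cells cycle was not tested, so their share gives no background level for the members. Cycling was not tested in the members either, and is not read from their share (2.40%, 3.59% and 6.02% before thinning).

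Of the 8 genes listed for the aortic arch, 7 were measured well enough and 3 were higher, with a median of 0.61. Prss12, a secreted protease, was at 39.7, 24.7 and 14.4 CPM against 5.93, 6.04 and 7.75. In cluster 5 of the members, described below, it was at 257 CPM, against 10.4 CPM in the other members. Spp1 is on this list too, and 10 cells of each library held 88.1%, 96.3% and 100% of its UMIs in members. Lbp, an acute phase protein that binds lipopolysaccharide, was at 15.9, 4.25 and 1.88 against 0.979, 0.893 and 0.589. Cluster 4 of the members, described below, held most of the Lbp, at 97.0 CPM against 1.22 CPM in the other members. Without that cluster 2 of the 7 arch genes were higher, and the medians by library were 1.09, 0.32 and 0.28 in place of 1.20, 1.04 and 0.91. Hand2, a transcription factor of the outflow tract and arch, was lower in APOE2 members and a little higher in those of APOE3 and APOE4 (59.7, 41.7 and 32.0 CPM against 68.4, 38.6 and 25.9). Of 7 descending aorta genes 3 were lower, with a median of −1.23. Hoxa7 was at 8.98, 8.91 and 14.7 CPM against 29.3, 33.6 and 43.2, and Hoxb8 at 0.755, 2.03 and 2.82 against 5.90, 8.27 and 8.36. Tnc, tenascin C, went the other way (42.5, 48.2 and 53.7 CPM against 18.2, 34.3 and 30.1). After thinning to 5000 UMIs, the share of cells with a UMI of any of 6 Hox genes was 7.20% (5.09 to 9.83), 10.2% (6.04 to 15.8) and 11.3% (6.45 to 17.9) in members against 16.3%, 21.7% and 27.1% in other gated cells, and 1.10%, 1.32% and 1.16% in macrophage-marked cells (17.2%, 25.7% and 26.3% in members before thinning, against 25.9%, 40.6% and 45.7%). Hand2 was found in 24.8%, 16.8% and 12.0% of members, 25.2%, 14.6% and 9.64% of other gated cells and 1.83%, 0 and 1.16% of macrophage-marked cells (55.2%, 43.7% and 35.3% of members before thinning). Members thus had fewer cells with a Hox UMI in each library, and the intervals for Hand2 contained the value of other cells.

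Along the score, over the 3 libraries, the contractile sum climbed and the modulated sum, led by Mgp, fell with each step down in rank, whereas the fibroblast sum did not move in 1 direction. Of the gated cells, 11067 had a score of 0. Cells were put in 7 groups by rank. Over the 3 libraries, contractile genes summed to 13473, 17911 and 20118 CPM in ranks 1 to 200, 201 to 400 and 401 to 800, to 21526 CPM in ranks 801 to 1600 just outside, and to 28124 CPM in cells with a score of 0. Modulated genes summed to 60713, 47216 and 37555 CPM in the members' 3 groups, 35394 CPM just outside and 21847 CPM at a score of 0. Mgp made up most of that fall, from 38191 CPM in ranks 1 to 200 to 17748 CPM just outside. Without it the modulated genes summed to 22522, 17019 and 17418 CPM in members, 17646 CPM just outside and 14388 CPM at a score of 0. Past the first 200 cells this pooled sum was level across the threshold. The mix of libraries changed with rank, as APOE2 supplied 69% of the 400 highest cells and 50.9% of the 1600 highest. Steps of the pooled sums are therefore not steps within a library. The contractile sums of the 3 libraries in ranks 1 to 200 were 13459, 13851 and 12742 CPM, and in ranks 201 to 400 APOE2 was higher (19173 CPM) than APOE3 (16191) and APOE4 (16083). NF-kB response genes, in contrast, summed to 5654 CPM in the 150 APOE2 cells of ranks 1 to 200, 1227 CPM in the 34 APOE3 cells and 2145 CPM in the 16 APOE4 cells. Fibroblast markers were at 3799, 201 and 216 CPM in these cells, and at 2278, 554 and 740 CPM in ranks 401 to 800. Just outside the threshold, in ranks 801 to 1600, they were at 1857, 1443 and 1827 CPM, lower than inside it in APOE2 and higher in APOE3 and APOE4.

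**Figure D4:**
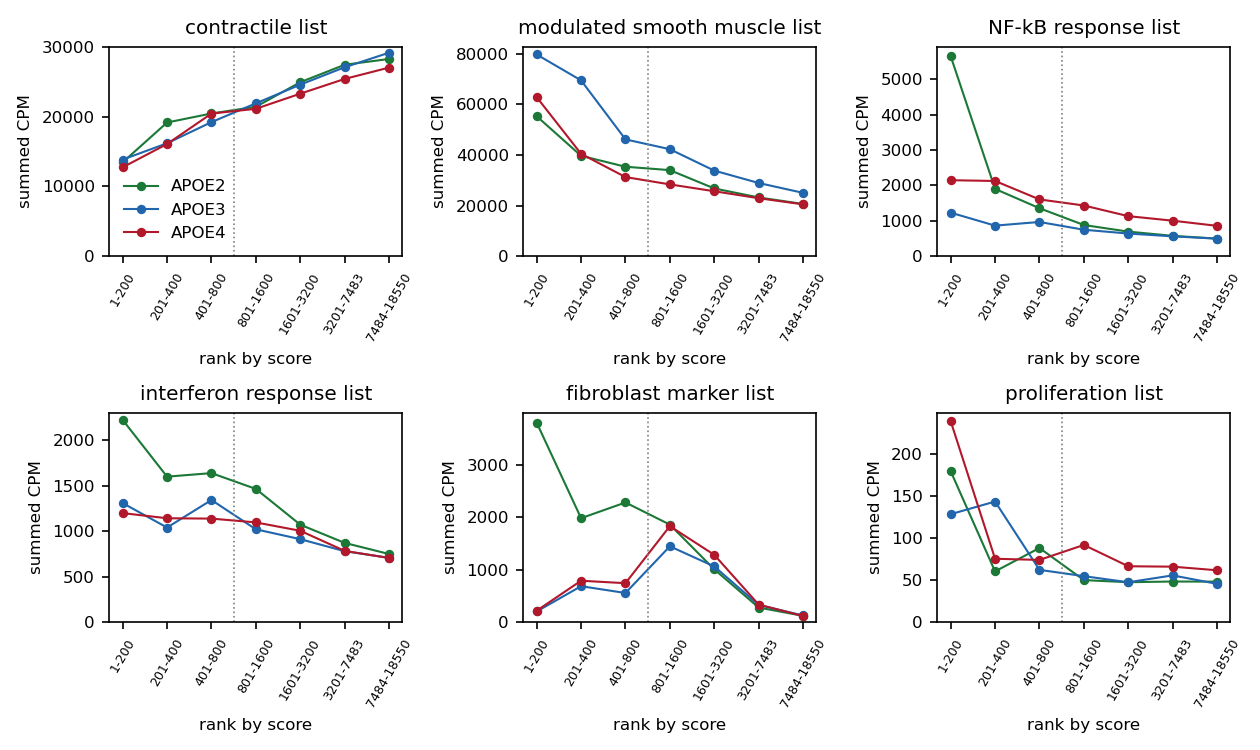
Summed CPM of 6 gene lists (vertical axes from 0) in 7 groups of gated cells ordered by score rank (horizontal axis, highest scores at the left), by library, with the dotted line at the threshold of 800 cells. The contractile sum climbs from 13473 CPM to 28124 CPM over the 3 libraries from left to right, and the NF-kB and fibroblast sums of APOE2 (5654 and 3799 CPM) stand apart in ranks 1 to 200.

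Levels in members were next set side by side between genotypes, with the other gated cells of the same libraries beside them. Of 1671 genes with at least 100 CPM in APOE2 or APOE3 members and at least 50 UMIs, 41 (2.45%) were at least 2-fold higher and 11 (0.658%) at least 2-fold lower in APOE2. Of 1636 genes for APOE4 against APOE3, 29 (1.77%) were higher and 4 (0.244%) lower, and of 1687 for APOE4 against APOE2, 38 (2.25%) were higher and 42 (2.49%) lower. These pairs share libraries, and each value rests on 1 library per genotype. Members were not matched on score between libraries: their median scores were 1176, 932 and 794 CPM. The part of score in the differences between genotypes was not tested.

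Of the 41 genes at least 2-fold higher in APOE2 than in APOE3 members, the 4 furthest apart, leaving out mitochondrial, ribosomal protein, haemoglobin, X inactivation and Y-linked genes and unnamed models, were Lcn2, Serpina3n, Prg4 and Cxcl2. Lcn2, lipocalin-2, which binds bacterial siderophores, had 8269 UMIs in APOE2 members (694 CPM) and 0 in APOE3 and APOE4 members. Taking 3 counts over the members of a library as the limit that a count of 0 allows, this is at least 1142-fold higher than in APOE3 and at least 737-fold higher than in APOE4. In other gated cells it was at 3.03, 0.564 and 0.0475 CPM. It was found in 203 of 500 APOE2 members, 73 of which had over 1000 CPM. Serpina3n, an acute phase protease inhibitor, was at 182, 0.810 and 5.96 CPM in members, Prg4, lubricin, at 167, 0.810 and 5.02 CPM, and Cxcl2 at 174, 2.03 and 19.8 CPM. For each of these the APOE2 level in members was far above the other 2. In other gated cells of APOE2 and APOE3, Serpina3n was at 6.92 and 0.771 CPM and Prg4 at 5.19 and 0.404 CPM, in the same direction. Cxcl2 was at 4.32 and 4.69 CPM there. Serpina3n was found in 37.8%, 1.80% and 8.27% of members. Cxcl2 was a gene of few cells, as 10 cells held 70.7% of its APOE2 UMIs and 16.8% of APOE2 members had any.

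Spp1 and C3, the central complement protein, followed against APOE4. Spp1 had 25028 UMIs in APOE2 members, but 1 cell held 6053 of them and 10 cells held 88.1%, and without these 10 the level was 262 CPM in place of 2100. In the other libraries 10 cells held 96.3% and 100% of the Spp1 UMIs. C3 was spread more widely, in 47.8% of APOE2 members at 175 CPM, and at 7.70 and 4.08 CPM in APOE3 and APOE4 members. In other gated cells it was at 15.02, 7.59 and 6.21 CPM. The complement list as a whole had a median log2 ratio of APOE2 to APOE3 of 1.48 over 11 genes in members, against −0.27 in other gated cells and 0.04 over all 13359 genes. Of the 11 genes, 7 were at least 2-fold higher in members and 1 in other gated cells, while in members 787 (5.89%) of all 13359 genes were. Members of APOE2 were above other gated cells of APOE2 for that list by 1.91, whereas the medians in APOE3 and APOE4 were 0.04 and −0.00059. Without cluster 4 of the members, described below, these medians were 1.17, −0.28 and −0.11. Lum, Dcn and Ly6a, a surface marker of adventitial cells, were likewise higher in APOE2 members: after thinning to 5000 UMIs Lum was found in 46.8%, 12.6% and 10.5% of members (57.8%, 21.0% and 19.5% before) and in 4.03%, 5.26% and 8.14% of macrophage-marked cells, and Dcn in 53.2%, 19.8% and 12.0% (65.8%, 37.1% and 26.3% before) and in 10.3%, 5.26% and 10.5% of macrophage-marked cells. Ly6a was at 153, 19.2 and 20.1 CPM. In other gated cells Lum was at 21.2, 19.99 and 13.5 CPM.

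**Figure D5:**
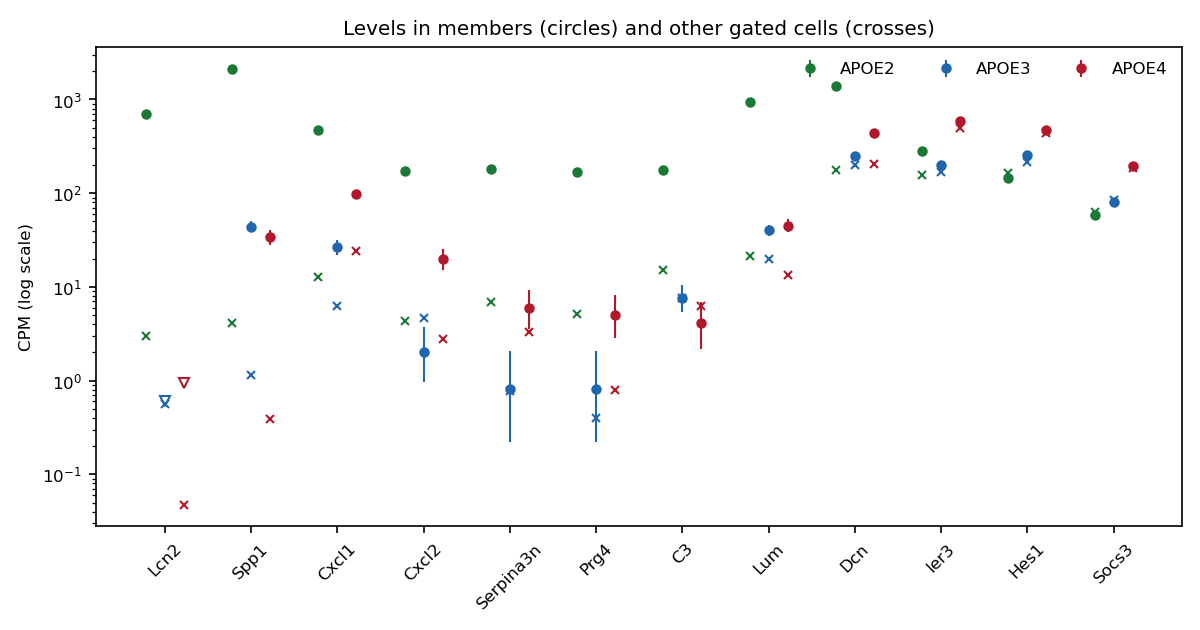
CPM on a log axis of 12 genes in members (circles with 95% Poisson intervals) and other gated cells (crosses), by library; open triangles stand at 3 counts where no UMI was found. Lcn2 lies at 694 CPM in APOE2 members with none in APOE3 and APOE4, while Ier3, Hes1 and Socs3 are highest in APOE4 in members and other cells alike.

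Of the 11 genes at least 2-fold lower in APOE2 than in APOE3 members, the 4 furthest apart under the same exceptions were Nrgn, Arc, Fblim1 and Cytl1. Cytl1 rested on few cells, and without the 10 highest cells of each library its direction turned, with 17.0 CPM in APOE2 and 13.2 CPM in APOE3 in place of 50.3 and 125 CPM. Nrgn, neurogranin, was at 22.5 CPM in APOE2 and 101 in APOE3, with a log2 ratio of −2.17 (−2.39 to −1.95), and at 14.1 and 17.5 CPM in other gated cells. Arc, an immediate early gene, was at 62.9 and 218 CPM in members and 28.3 and 73.6 CPM in other cells, and Fblim1, a filamin-binding adhesion protein, at 337 and 928 against 420 and 1008. For Arc and Fblim1 the other gated cells therefore differed between the libraries by nearly as much as the members did (log2 −1.38 and −1.26 beside −1.79 and −1.46).

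Against APOE3, APOE4 members were highest for Gas1, Ier3, Ints6 and Kansl1l and lowest for Des, Rgs5, Tnfrsf11b and Mgp. Without the 10 highest cells of each library Des was at 14.6 CPM in APOE4 and 33.6 CPM in APOE3. Gas1, a growth arrest gene, rested on 1 cell: that cell held 217 of 360 UMIs in APOE4, and without the 10 highest cells of each library the levels were 32.0 CPM in APOE4 and 22.3 CPM in APOE3. Ier3, an immediate early gene, was at 596 and 199 CPM in members and 495 and 169 CPM in other cells, a log2 ratio of 1.58 beside 1.55. Mgp was at 20076 CPM in APOE4 and 40185 in APOE3 members (−1.001) and at 6098 and 10864 in other cells (−0.83). Against APOE2, APOE4 members were highest for Eif3j1, Hes1, Socs3 and Ier5, with log2 ratios of 2.06, 1.72, 1.72 and 1.68, and of 1.69, 1.41, 1.54 and 1.27 in other gated cells. Hes1, a Notch target, was found in 75.0%, 79.0% and 95.5% of members. For the immediate early list, APOE4 members were above APOE2 members by a median of 1.01 on the log2 scale, and other gated cells by 0.77. Of its 20 genes, 12 were at least 2-fold higher in members and 7 in other gated cells, while in members 560 (4.19%) of all 13359 genes were.

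The members were not all of one kind. Clustered without the 5 score genes, they fell into 7 clusters, numbered here and described by the genes highest in each; these genes made the clusters, so neither they nor the cluster sizes are a test, and a cluster of 1 library may be that library. Cluster 6, the largest with 270 cells (67, 94 and 109 by library), was led by Esm1, which was in 31 of its cells, and by Arc, Socs3 and Hbegf, which were in 191, 210 and 234. Cluster 1, with 169 cells, was led by Ifit3 and haemoglobin genes, with Hbb-bs at 774 CPM against 321 CPM in the other members. These were in few of its cells: Ifit3 in 23, Hbb-bs in 32, Hba-a1 in 13 and Hbb-bt in 8. Cluster 3 held 111 cells, all from APOE2, led by Cxcl2, Selp, Hp, Lcn2, Cxcl1 and Lrg1, with Vcam1 at 3370 CPM against 1397 in the other members, Nfkbia at 1517 against 651 and Lum at 2507 against 199. Selp, P-selectin, known from endothelial cells, was in 30 of its cells, and Cd74, known from antigen-presenting cells, in 40. Pecam1 was higher there, at 46.9 CPM against 35.2 CPM in the other members, and was in 56 of the cells, while Ptprc was at 0. The part of other cell types in this cluster was not tested.

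Cluster 4, with 85 cells (63, 14 and 8), was led by S100a8 and S100a9, which were in 12 cells only, and by the adventitial genes Apod, Clec3b, Cygb and Pi16, with Dcn at 4771 CPM against 533 in the other members. Of its cells 48.2% were among the highest doublet scores, against 12.8%, 5.39% and 8.27% of the members of the 3 libraries. Without cluster 4 the fibroblast list had a median of 0.13 in place of 0.93 and the complement list 0.09 in place of 0.67. By library the fibroblast medians were then 0.54, −0.12 and −0.04, and the complement medians 1.17, −0.28 and −0.11. The interferon median without cluster 4 was 0.81, the NF-kB median 1.44 and the contractile median −0.56. Also without cluster 4, 3 collagens in place of 5, 1 fibroblast marker in place of 3 and 1 proteoglycan in place of 2 were higher. So were 8 modulated genes in place of 10, 4 prostaglandin genes in place of 5 and 2 of the metalloproteinase list in place of 3. The cartilage and bone list went the other way, with 7 higher in place of 5. The NF-kB median was 1.05 without cluster 3, and 1 smooth muscle marker in place of 3 was lower. Of the 87 cells in cluster 2, 83 came from APOE2. Their median depth was 8515 UMIs, of which 4.14% were mitochondrial, and they were led by mt-Nd6, Ulk4 and Alms1. Cluster 5, with 66 cells, was led by Fgf12, Grem1, Mdga2 and Coch, with Dlx6 in 54 and Prss12 in 61 of its cells. Pecam1 was highest in this cluster, at 83.0 CPM against 32.7 CPM in the other members, and was in 45 of its cells. The part of other cell types was not tested here either. Cluster 7 held 12 cells, 4 from each library, with Mki67 in 10 and Top2a in 11 of them, and had Timp1 at 5235 CPM against 561 CPM in the other members. With cluster 2, 3 or 4 left out in turn, the APOE2 share was 5.64%, 5.28% or 5.90%, still above the APOE3 shares of 3.23%, 3.27% and 3.001%.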

How the data were processed

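Aortic cells of the 3 genotypes were captured in 1 droplet library each. The deposited files hold UMI counts per gene and barcode, made by the authors with Cell Ranger 7.0.1 against mm10 (file header and submitters' processing notes), before any filter of theirs on cells. Here the gate and score were applied to these counts (Python 3.11.15, scanpy 1.11.5, scipy 1.17.1), members and other gated cells were summed per library, and CPM were taken over all UMIs. Ratios carry 0.5 UMI in counts of calls and list medians, and none in printed ratios. Intervals are exact Poisson for CPM, Clopper-Pearson for shares and conditional binomial for ratios. PCR duplicates are collapsed by the UMIs. No test was run, with 1 library per genotype and members chosen on the same cells. The code was tested on simulated data.

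The members and lists were chosen with earlier results of these data known, and the arch and descending lists come from the study. For members against other gated cells, genes needed 50 UMIs in the gated cells of every library. Between genotypes they needed 50 UMIs in the members of both libraries together. Named were the score and gate genes, the 12 highest and 12 lowest by the smallest ratio of the 3 libraries (at least 50 CPM), the 4 furthest apart in each direction for each pair of genotypes (at least 100 CPM), the 2 highest and 2 lowest of each list, and the arch and descending genes, without mitochondrial, ribosomal, haemoglobin, sex-linked inactivation and unnamed genes. Some genes that this rule names are not reported here. Other genes of the lists were named for their role after their values had been seen. Scrublet's own threshold marked 0.00849%, 0 and 0.0242% of cells, and so had not worked, and the highest 9.42%, 5.39% and 6.60% of scores were taken in its place (0.8% per 1000 cells). Doublets were not removed otherwise. Rank groups replaced the 20 equal score bins first planned, since 11067 of 18550 cells had a score of 0. Macrophage-marked cells had at least 10 C1q UMIs. Members were clustered (Leiden, resolution 0.5, 2000 genes, 20 components, 15 neighbours) without the score genes. Gene positions are from GENCODE vM21 (GRCm38, the same assembly as mm10). Alternatives changed the number of cells, depth, score genes, gate, doublets, scaling, gene filter and libraries, and leaving out cluster 2, 3, 4 or 7 was added after seeing the data.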

Additional observations from a re-analysis of the deposited data

How the results depend on the processing

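No paired analysis was possible because each genotype is 1 library and no test was run. The 24 genes named as highest or lowest had the same sign in 480 of 480 alternatives, but 112 of these ratios moved by more than the SD of the 3 libraries, such as Carmn from −1.13 to −0.12 without Vcam1 and Timp1 in the score. With 400 or 1600 cells the shares were 3.69% or 10.9% (APOE2), 1.49% or 8.33% (APOE3) and 0.805% or 6.04% (APOE4), the lower genes numbered 66 or 6, the contractile median was −0.79 or −0.45, and the modulated median was 1.11 with 400. Without Vcam1 in the score, 340 genes were higher and 16 lower, 14 were apart between APOE4 and APOE3, and the APOE3 share was 3.95%. Without Vcam1 and Timp1 these counts were 79 and 7, the contractile, modulated and NF-kB medians −0.28, 0.85 and 0.58, the APOE2 and APOE4 shares 5.45% and 3.44%, and the cardiac list median turned from −1.45 to 0.037. With a higher minimum of UMIs per cell the shares were 7.52%, 4.14% and 3.06%. With Acta2 and Tagln at 2%, APOE3 and APOE4 were at 4.29% and 2.996%, the contractile median was −0.43 and 34 genes were apart between APOE2 and APOE3. Without the highest doublet scores APOE3 and APOE4 were at 3.92% and 2.78%. With no minimum of UMIs, 1552 genes were higher and 52 lower. Leaving out 1 library gave 62 to 96 lower genes, 274 to 314 higher genes (more by construction, since fewer libraries must pass) and a modulated median of 0.77 (without APOE2) to 1.55. Leaving out cluster 2, 3 or 4 gave APOE2 shares of 5.64%, 5.28% or 5.90%, and without cluster 4 the modulated median was 0.76. The cause of these shifts was not tested. Without cluster 7 the proliferation median was 0.69 in place of 2.31. Of 640 list medians under alternatives 99 moved, and of 54 counts of genes apart between genotypes 2 moved. Counting error limits APOE4 most, with 133 members and 3187014 UMIs.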
